A study of Mus musculus with 6 samples.

Results

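The 10 genes described here are the transcription factors Snai1, Snai2, Zeb1 and Zeb2, the cadherins Cdh1, Cdh2, Cdh3 and Cdh11, and the epithelial membrane genes Ocln and Epcam. They were taken by name, as the probe sets whose array annotation gave a single symbol equal to 1 of these names, and all 10 were measured, of 19938 genes in all. Each was represented by 1 probe set. RNA came from mouse embryonic fibroblasts (MEFs) that were H2AX knockout (H2AX KO) or wild type (WT), with 3 arrays of each genotype. Both kinds of cell were untreated and were grown in DMEM with fetal bovine serum and glutamine. The sources used here do not give the number of embryos behind each genotype, their age, or whether the cells were immortalized, so that p-values measure only the spread between these arrays.

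Epithelial-to-mesenchymal transition (EMT) is the process by which cells give up stable junctions with their neighbours and take on a migratory, fibroblast-like form. SNAI and ZEB proteins are zinc-finger repressors that bind E-box sequences in the promoters of junction genes, with Cdh1 as the textbook target. Cadherins join cells through calcium-dependent contacts, and fibroblasts typically carry N-cadherin (Cdh2) and cadherin-11 (Cdh11) in place of the E-cadherin (Cdh1) of epithelia.

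Array values are log2 expression values, so that a difference of 1 is a 2-fold change. Since probe sets differ in their response, tests compare values within a gene, and no gene is ranked against another by its level. Where a gene is said to lie below the median of all probe sets, this describes its signal on the array scale and not the amount of its RNA. Over all probe sets, the quartiles of the mean value were 4.84 and 8.11 and the median was 6.11, and array medians lay between 6.06 and 6.12. The targeted gene H2ax had values of 7.69, 7.77 and 7.67 on H2AX KO arrays and of 8.96, 9.18 and 9.00 on WT arrays, a log2 fold change (KO minus WT, below also called the log2 difference) of -1.34 (SE 0.07, limma adjusted p = 5.81e-07). H2ax signal was lower on each KO array. Whether its probes read the deleted stretch is not stated in the sources used here. Of 12 fibroblast markers, 0 lay below the median of all probe sets in both genotypes, and the intermediate filament gene Vim averaged 13.14 in KO cells and 13.21 in WT cells. The fibroblast activation protein gene Fap, however, was at 4.45 in KO cells and at 7.02 in WT cells. The Y-linked genes Kdm5d, Eif2s3y and Uty were lower in KO cells, with log2 fold changes of -2.88, -4.04 and -3.73. Xist, the X-linked RNA of the inactive X chromosome, averaged 4.56 in KO cells and 4.53 in WT cells, below the median of all probe sets in both (log2 difference 0.03, limma adjusted p = 0.798). The part of the Y-linked difference in the results below was not tested.

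In H2AX KO MEFs, Cdh3 and Cdh11 rose 5.76-fold and 4.03-fold, and Snai1 rose by 0.38 on the log2 scale. Ocln fell by 0.71, Zeb2 by 0.44 and Cdh2 by 0.40 on the log2 scale. Snai2, Zeb1, Cdh1 and Epcam missed the threshold, an adjusted p under 0.05 from limma over all 19938 genes. Thus 6 of 10 genes passed, where 33.4% of all genes did, with 3 higher (18.4% of all genes) and 3 lower (15.0% of all genes). When a fold change over 2 was required as well, 2 of the 10 genes passed (5.30% of all genes), with 2 higher (2.12% of all genes) and 0 lower (3.18% of all genes). The median size of the log2 change was 0.39 over the 10 genes and 0.13 over all genes, and the median signed change was 0.14 against 0.02. The 2 genotypes did not overlap for 9 of the 10 genes, which was the case for 44.8% of all genes. The gene lists described below were read against the same background shares and were not tested as lists. With 3 arrays against 3, an exact permutation test of a single gene cannot give a two-sided p below 0.1.

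**Figure D1:**
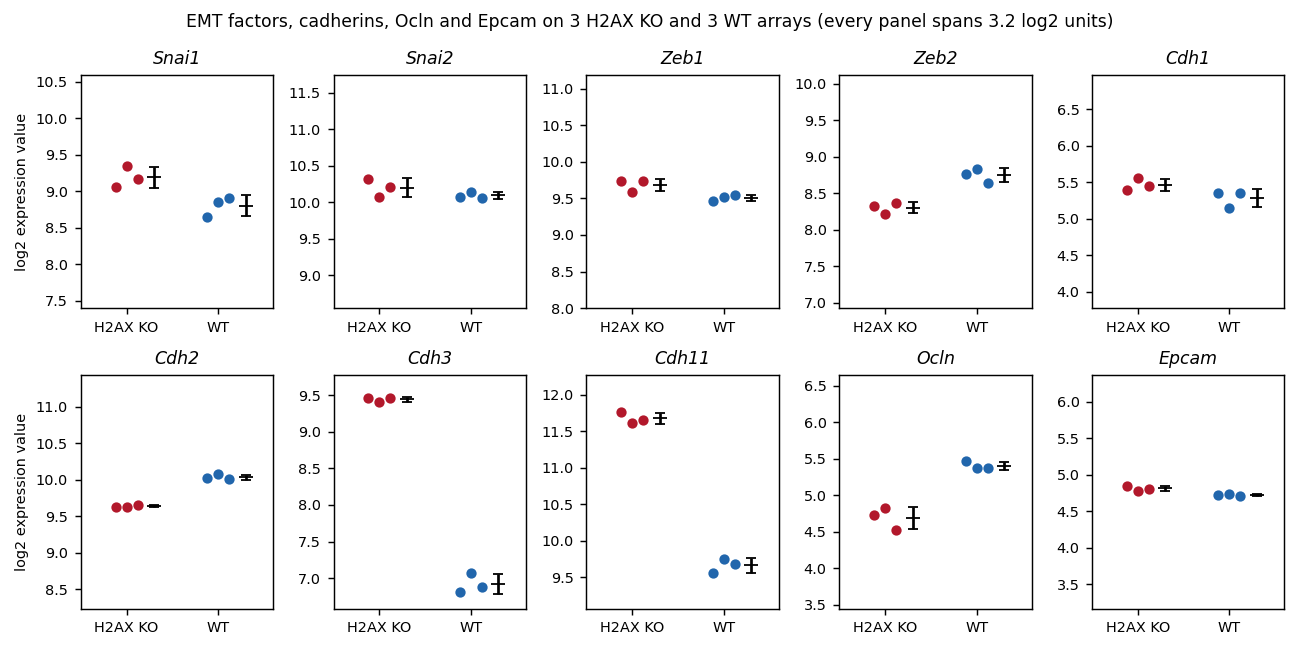
Log2 expression values (y axis) of the 10 genes on the 3 H2AX KO arrays (red) and the 3 WT arrays (blue), with the mean and SD of each genotype in black beside the points. Cdh3 and Cdh11 lie far apart between the genotypes, and Snai2 is the gene whose points overlap.

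Of the 4 transcription factors, 1 rose, 1 fell and 2 missed the threshold. Snai1, the repressor usually called Snail, had values of 9.06, 9.34 and 9.17 on KO arrays and of 8.64, 8.86 and 8.91 on WT arrays. The lowest KO array lay above the highest WT array, by a gap narrower than the range within either genotype. The log2 difference of Snai1 was 0.38 (SE 0.09, limma adjusted p = 0.0108), and without moderation of the variance, as in the unmoderated test of the methods, the gene did not pass (adjusted p = 0.096). Snai2, known as Slug, had values of 10.33, 10.07 and 10.21 on KO arrays and of 10.08, 10.14 and 10.06 on WT arrays, so that 1 KO array lay within the WT range. Its log2 fold change was 0.11 (95% confidence interval -0.06 to 0.28, limma adjusted p = 0.332). Snai3, the remaining Snail gene of the mouse, averaged 4.75 in both genotypes, near the low end of the array scale (95% confidence interval of the difference -0.20 to 0.20, limma adjusted p = 0.997).

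The ZEB factors, large repressors with a zinc-finger cluster at each end, were called differently, with Zeb2 lower and Zeb1 short of the threshold. Zeb2 had values of 8.33, 8.22 and 8.37 on KO arrays and of 8.76, 8.83 and 8.64 on WT arrays, and each KO array was lower. Its log2 fold change was -0.44 (SE 0.07, limma adjusted p = 0.00118). Zeb1 had values of 9.73, 9.58 and 9.73 on KO arrays and of 9.46, 9.51 and 9.54 on WT arrays, with no overlap and a narrow gap. Its log2 fold change was 0.18 (95% confidence interval 0.03 to 0.33, limma adjusted p = 0.0724). Without H2AX KO replicate 2, the lowest of the KO arrays, Zeb1 passed with a log2 difference of 0.23 (adjusted p = 0.0237), and it also passed under both other scalings, given in the closing section.

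The miR-200 family is known to silence Zeb1 and Zeb2 in epithelial cells and to be silenced by them in turn. The mature 3p arms below, from RefSeq (GRCm38.p6), are shown because they fall into groups by seed, the bases 2 to 8 in capitals that pair with target messages. miR-205, an epithelial miRNA that also targets the ZEB genes, is given by its 5p arm.
mmu-miR-200b-3p: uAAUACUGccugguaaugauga
mmu-miR-200c-3p: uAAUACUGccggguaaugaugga
mmu-miR-429-3p: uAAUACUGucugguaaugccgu
mmu-miR-200a-3p: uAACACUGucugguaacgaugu
mmu-miR-141-3p: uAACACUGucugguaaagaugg
mmu-miR-205-5p: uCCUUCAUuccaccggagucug
Whether the probe sets named for these genes respond to the mature forms is not stated in the sources used here. Of 6 listed genes, 5 were measured (Mir429 was not analysed here), all 5 lay below the median of all probe sets in both genotypes, and 0 passed the test by limma. Mir200a, of the AACACUG seed, averaged 5.84 in KO cells and 5.61 in WT cells (log2 fold change 0.22, limma adjusted p = 0.108, and 1 gene of the list passed without H2AX KO replicate 1). Mir200b, of the AAUACUG seed, averaged 4.39 in KO cells and 4.31 in WT cells. The remaining log2 fold changes lay between -0.08 for Mir205 and 0.05 for Mir200c.

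Of 11 other transcription factors linked to EMT, 6 were higher in KO cells, 2 were lower and 3 missed the threshold, with a median log2 difference of 0.49. Twist2, a basic helix-loop-helix factor of mesenchyme, averaged 8.68 in KO cells and 10.37 in WT cells, a log2 difference of -1.69 (SE 0.07, limma adjusted p = 4.81e-08). The related Twist1, named after its value was seen, went the other way, with means of 9.08 in KO cells and 8.45 in WT cells and a log2 difference of 0.63 (limma adjusted p = 0.00052). The largest rises in the list were in the Krüppel-like factor Klf8, by 1.05 log2 units (limma adjusted p = 6.33e-05), and in the forkhead factor Foxc1, by 0.89 (limma adjusted p = 3.94e-05). Klf8 averaged 5.61 in KO cells and 4.56 in WT cells, below the median of all probe sets in both. Tcf4, an E-box binding factor, fell by 0.30 (limma adjusted p = 0.00509).
Of 13 factors that hold cells in an epithelial state, 10 lay below the median of all probe sets in both genotypes, 2 were higher in KO cells and 0 were lower. The higher ones were Klf4, by 1.20 log2 units (adjusted p = 5.14e-07), and Klf5, by 0.45 (limma adjusted p = 0.000775). Klf4 and Klf5 are also active outside epithelia. Grhl2, which maintains Cdh1 and Epcam transcription in epithelia, averaged 4.87 in KO cells and 4.92 in WT cells (adjusted p = 0.737).

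SNAI and ZEB proteins act through co-repressor complexes. Of 15 listed co-repressor genes, 13 were measured (Loxl2 and Suv39h1 were not analysed here). Among these 13, 8 were higher in KO cells, 2 were lower and 3 missed the threshold. The counts were 5 higher without WT replicate 3, 1 lower without WT replicate 2, WT replicate 3 or H2AX KO replicate 3, and 5 higher and 1 lower without moderation of the variance. With the replicate number as a block, 1 was lower as well. Ajuba, a LIM protein that bridges Snail to histone-modifying enzymes, rose by 1.28 log2 units (SE 0.09, limma adjusted p = 3.2e-06), and its relative Wtip rose by 0.59 (limma adjusted p = 3.16e-05). Loxl3, a lysyl oxidase-like enzyme reported to act with Snail, fell by 1.36 (SE 0.07, limma adjusted p = 3.69e-07), and the histone deacetylase Hdac1 fell by 0.25 (limma adjusted p = 0.0198).
Snail protein is short-lived, and its phosphorylation by GSK3 beta marks it for the ubiquitin ligase beta-TrCP (Btrc). Of 8 genes of Snail turnover, 4 were higher, 1 was lower and 3 missed the threshold, with 2 higher without WT replicate 3 and 2 lower without WT replicate 1. Gsk3b rose by 0.64 log2 units (adjusted p = 2.14e-05) and the kinase Lats2 by 0.60 (limma adjusted p = 0.000157). The lower gene was the ubiquitin ligase Mdm2, which fell by 0.73 (limma adjusted p = 0.00437), and without moderation of the variance 0 genes of the list were lower.

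**Figure D2:**
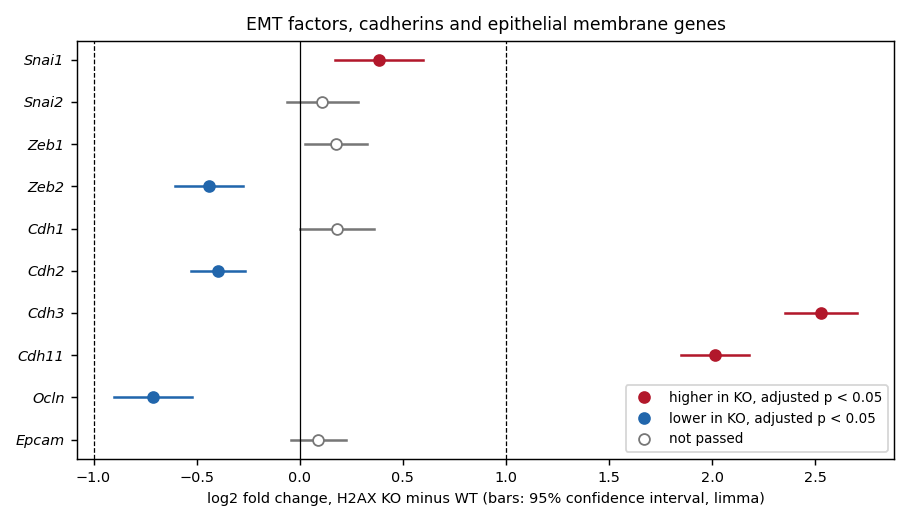
Log2 fold change of H2AX KO minus WT (x axis) for the 10 genes, where each point is an estimate and each bar its 95% confidence interval from limma. Filled red points were higher and filled blue points lower at an adjusted p under 0.05, open points did not pass, and dashed lines mark a fold change of 2, which Cdh3 at 2.53 and Cdh11 at 2.01 exceed.

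Of the 4 cadherins, 2 rose, 1 fell and 1 missed the threshold. Cdh3, P-cadherin, a classical cadherin of placenta and basal epithelia, had values of 9.46, 9.41 and 9.46 on KO arrays and of 6.80, 7.07 and 6.87 on WT arrays. The KO arrays lay close together and far above all WT arrays. The log2 difference of Cdh3 was 2.53 (SE 0.08, limma adjusted p = 1.06e-08), the 53rd largest rise among all genes. Since RNA was taken from whole cultures, more Cdh3 RNA per cell and more cells with Cdh3 cannot be told apart, and the same holds for every gene here.
Cdh11, a type II cadherin of mesenchyme first known from osteoblasts, had values of 11.76, 11.61 and 11.66 on KO arrays and of 9.56, 9.76 and 9.68 on WT arrays. Again the genotypes were far apart relative to their spread. For Cdh11 the log2 difference was 2.01 (SE 0.07, limma adjusted p = 3.17e-08), the 103rd largest rise. A further 3 probe sets carry the symbol Cdh11 together with 2 other genes, and they are described in the closing section.

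Cdh2, N-cadherin, had values of 9.62, 9.63 and 9.65 on KO arrays and of 10.02, 10.07 and 10.01 on WT arrays. Its spread was the smallest of the 10 genes in KO cells, and each KO array was lower. For Cdh2 the log2 difference was -0.40 (SE 0.06, limma adjusted p = 0.000485). Cdh2 lies on chromosome 18, where 148 of 471 measured genes were lower (31.4%, against 15.0% of all genes), with a median log2 difference of -0.06. Zeb1 lies there as well. Among the other genes that passed, Snai1 and Zeb2 lie on chromosome 2 (21.9% lower, 8.83% higher) and Ocln on chromosome 13 (19.5% lower, 9.84% higher). The part of these chromosome differences in the values of the genes was not tested. Cdh1, E-cadherin, had values of 5.39, 5.56 and 5.44 on KO arrays and of 5.36, 5.14 and 5.34 on WT arrays, below the median of all probe sets on all 6 arrays. The genotypes did not overlap, but their nearest arrays almost touched. For Cdh1 the log2 difference was 0.18 (95% confidence interval 0.00 to 0.36, limma adjusted p = 0.119). Signal at this level does not show whether Cdh1 is transcribed in these cells.

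Cdh1, Cdh3 and Cdh11 all lie on chromosome 8, whose genes were higher in KO cells more often than those of any other chromosome. Of 955 measured genes there, 435 were higher (45.5%, against 18.4% of all genes) and 62 were lower. The median log2 fold change on chromosome 8 was 0.18, the highest of 21 chromosomes. By array, the median difference of chromosome 8 genes from their WT mean was 0.18, 0.20 and 0.20 on KO arrays and -0.04, 0.02 and 0.02 on WT arrays. The part of this chromosome-wide difference in the cadherin values was not tested. Measured from the chromosome median, the log2 differences were 2.34 for Cdh3, 1.83 for Cdh11 and -0.00 for Cdh1. Cdh3 and Cdh11 ranked 1st and 5th among the rises on the chromosome. A median over the chromosome does not describe the difference at a single place, so that this subtraction does not separate it from a gene's own change.
Cdh3 and Cdh1 are next to each other in the order of measured genes on that chromosome (RefSeq, GRCm38.p6). Of the 4 measured genes on either side of Cdh3, 6 were higher in KO cells and 0 were lower, with Prmt7, an arginine methyltransferase gene, at a log2 difference of 1.13 and Tango6 at 0.96. Around Cdh11, 2 of 8 neighbours were higher and 2 were lower. The cadherin genes among them were Cdh8, with a log2 difference of 0.05 (adjusted p = 0.606), and Cdh5, with -0.47 (limma adjusted p = 0.0087). Prmt7 and Tango6 were named after their values were seen, as the largest rises around Cdh3, and Cdh8 and Cdh5 were named as cadherins.

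**Figure D3:**
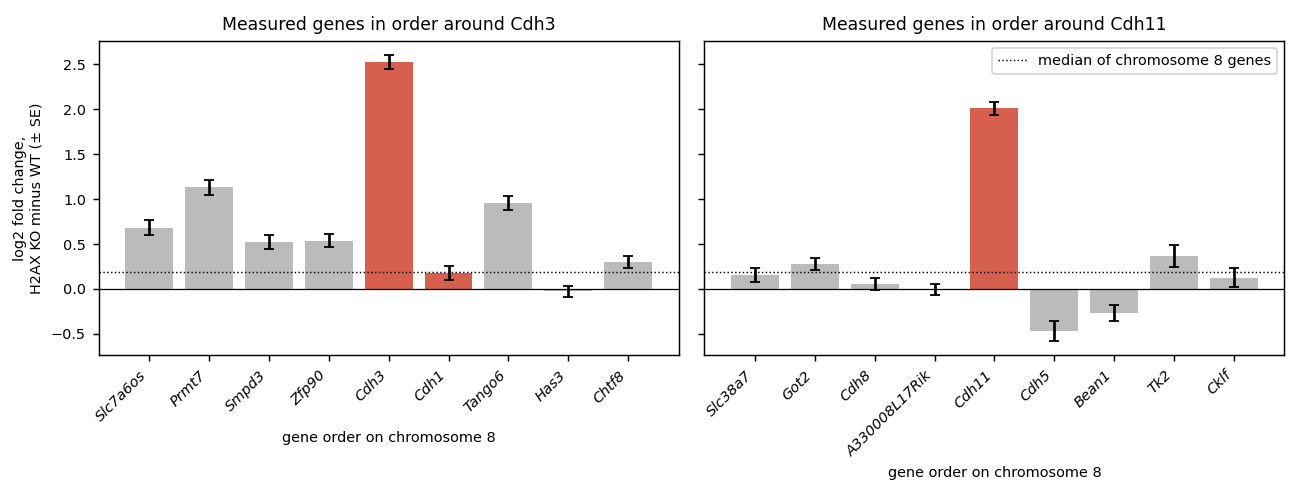
Log2 fold change of H2AX KO minus WT (y axis, bars with the standard error from limma) for the 4 measured genes on either side of Cdh3 and Cdh11, in their order on chromosome 8 (x axis), with Cdh1, Cdh3 and Cdh11 in red. The dotted line marks the chromosome 8 median of 0.18, which Cdh3 at 2.53 and Cdh11 at 2.01 exceed by far and at which Cdh1 lies.

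The pattern of Cdh3 over the 6 arrays was most like that of Mmp16, a membrane-bound matrix metalloprotease, at a Euclidean distance of 0.08 log2 units after each gene's own mean was subtracted. Mmp16 had values of 9.40, 9.34 and 9.46 on KO arrays and of 6.82, 7.08 and 6.86 on WT arrays. The next were Fbn2, fibrillin-2, at a distance of 0.19 and Reep6 at 0.20, with log2 fold changes of 2.63 and 2.59. This is a description over 6 arrays in which the genotype difference dominates the distance.

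Across the cadherin family, 4 of 23 measured genes were higher in KO cells, 4 were lower and 15 missed the threshold, with a median log2 difference of 0.01. In 14 of the 23, both genotypes lay below the median of all probe sets. Of 8 cadherins on chromosome 8, 3 were higher and 1 was lower, and of 15 elsewhere, 1 was higher and 3 were lower. Among all 955 measured genes of chromosome 8, 45.5% were higher and 6.49% were lower, so that the count of higher cadherins there does not exceed the share of their chromosome. By the size of the rise, however, Cdh3 and Cdh11 ranked 1st and 5th on it. The largest decrease was in Cdh6, K-cadherin, a type II cadherin of kidney and neural crest. Cdh6 had values of 5.75 ± 0.06 in KO cells and 8.95 ± 0.17 in WT cells (SD, n = 3 each), a log2 difference of -3.20 or 9.20-fold (SE 0.09, limma adjusted p = 5.43e-09). Cdh13, T-cadherin, which is anchored to the membrane by a lipid and lacks a cytoplasmic tail, averaged 8.78 in KO cells and 7.93 in WT cells (log2 fold change 0.85, limma adjusted p = 3.49e-05). Cdh24 rose by 0.28 (adjusted p = 0.00648) and Cdh26 fell by 0.75 (adjusted p = 0.000259). Cdh5, the cadherin of endothelium, was at 5.11 in KO cells and 5.58 in WT cells.

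**Figure D4:**
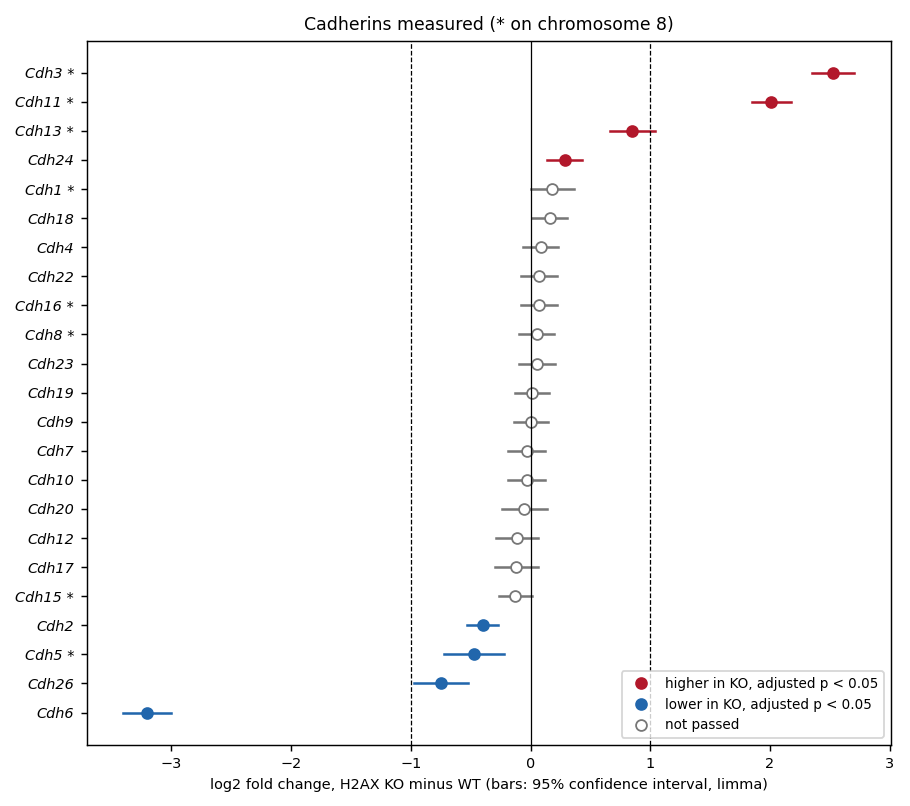
Log2 fold change of H2AX KO minus WT (x axis) for the 23 measured cadherins in order of their change, with bars for the 95% confidence interval from limma and a star for genes on chromosome 8. Filled points passed an adjusted p under 0.05 (red higher, blue lower), dashed lines mark a fold change of 2, and the 3 cadherins beyond them are Cdh3, Cdh11 and Cdh6.

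Catenins tie cadherin tails to actin, and nectins initiate the junctions in which cadherins gather. Of 13 measured genes of this kind, 7 were lower in KO cells, 2 were higher and 4 missed the threshold, with a median log2 difference of -0.27. Jup, plakoglobin, which serves both adherens junctions and desmosomes, averaged 8.68 in KO cells and 10.17 in WT cells, a log2 difference of -1.49 (SE 0.09, limma adjusted p = 9.32e-07). Ctnnal1, alpha-catulin, an alpha-catenin relative, averaged 8.18 in KO cells and 9.72 in WT cells (log2 fold change -1.54, adjusted p = 3.76e-07). The higher genes were Ctnnd2, delta-catenin, by 1.19 (adjusted p = 5.52e-05), and Afdn, afadin, by 0.83 (limma adjusted p = 5.08e-06).
Among the catenins that bind classical cadherins directly or through each other, named after their values were seen, Ctnnd1 (p120) fell by 0.39 (adjusted p = 0.00244) and Ctnna1 fell by 0.30 (adjusted p = 0.0031). Ctnnb1, beta-catenin, had a log2 difference of -0.15 (95% confidence interval -0.30 to 0.01, limma adjusted p = 0.141). Of 9 genes of cadherin cleavage and turnover, 3 were lower, 1 was higher and 5 did not pass. Ncstn, a subunit of gamma-secretase, fell by 0.84 (adjusted p = 9.68e-06), the proprotein convertase Furin fell by 0.48 (adjusted p = 0.0014), and its relative Pcsk6 rose by 0.37 (adjusted p = 0.00597). Without moderation of the variance 0 genes of this list were higher, so that Pcsk6 no longer passed. Adam10, the main sheddase of E- and N-cadherin, had a log2 difference of -0.03 (limma adjusted p = 0.806).

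Of the pair of epithelial membrane genes, Ocln fell and Epcam missed the threshold. Ocln encodes occludin, a protein of tight junctions, and had values of 4.73, 4.82 and 4.53 on KO arrays and of 5.47, 5.37 and 5.37 on WT arrays. Each KO array was lower by more than the spread within either genotype, in the low range of the array scale. For Ocln the log2 difference was -0.71 (SE 0.08, limma adjusted p = 0.000112). Epcam, the epithelial cell adhesion molecule, had values of 4.85, 4.77 and 4.81 on KO arrays and of 4.72, 4.74 and 4.70 on WT arrays, close to the lower quartile of all probe sets. Here too the genotypes did not overlap and their nearest arrays almost touched. For Epcam the log2 difference was 0.09 (95% confidence interval -0.04 to 0.22, limma adjusted p = 0.297).

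The E-box to which SNAI and ZEB proteins bind reads CACCTG, or CAGGTG on the other strand. Sequence of the 250 bases before the start site was at hand for 4 of the 10 genes (Snai1, Zeb2, Ocln and Epcam), in 8 windows of which some overlap, and 3 of these held the E-box on either strand, as did 17.2% of all 32851 promoter windows of that length. The Snai1 window (chr2:167537945-167538194, plus strand) and the Epcam window (chr17:87635729-87635978, plus strand) are shown because the first gene rose and the second missed the threshold, with the E-boxes in capitals (RefSeq, GRCm38.p6).
Snai1: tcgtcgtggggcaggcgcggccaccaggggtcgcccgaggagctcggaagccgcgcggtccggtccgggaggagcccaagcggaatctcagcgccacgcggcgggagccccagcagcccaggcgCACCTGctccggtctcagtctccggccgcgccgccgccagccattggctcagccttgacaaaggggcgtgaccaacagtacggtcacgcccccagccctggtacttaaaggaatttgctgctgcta
Epcam: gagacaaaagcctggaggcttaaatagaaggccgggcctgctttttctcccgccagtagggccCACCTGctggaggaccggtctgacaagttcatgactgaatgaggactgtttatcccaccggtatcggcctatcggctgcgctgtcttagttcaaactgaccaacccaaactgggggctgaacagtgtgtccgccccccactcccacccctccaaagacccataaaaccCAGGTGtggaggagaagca
Snai1 held 1 E-box, 126 bases before its start site, and Epcam held 2, at 187 and 19 bases. Ocln, which fell, has 2 annotated start sites on the minus strand. The window of the downstream one held 2 E-boxes, at 213 and 68 bases before it. They are shown with the bases around them, as stretches of 30 bases (chr13:100552694-100552723 and chr13:100552549-100552578).
Ocln, 213 bases before: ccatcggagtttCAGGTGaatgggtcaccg
Ocln, 68 bases before: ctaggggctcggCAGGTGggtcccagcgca
The upstream window of Ocln and the 4 windows of Zeb2, which also fell, did not hold these letters. A match is a description of the sequence, and binding was not measured in these arrays.

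Other tight junction genes moved in both directions. Of 27 measured, 6 were lower in KO cells, 5 were higher and 16 missed the threshold, with a median log2 difference of 0.07. The count of higher genes was 3 without WT replicate 1, without WT replicate 3 or without moderation of the variance, and 2 without WT replicate 2 or H2AX KO replicate 3. Cgnl1, paracingulin, averaged 5.87 in KO cells and 7.79 in WT cells, a log2 difference of -1.92 (SE 0.06, limma adjusted p = 1.45e-08). Jam2, a junctional adhesion molecule, averaged 5.40 in KO cells and 6.74 in WT cells (log2 fold change -1.34, adjusted p = 3.74e-07), and F11r, another of that family named after its value was seen, had a log2 difference of -1.27 (adjusted p = 2.26e-06). The polarity gene Pard6b rose by 0.71 (limma adjusted p = 9.02e-05) and the claudin Cldn9 rose by 0.39 (limma adjusted p = 0.00209). Cldn9 averaged 5.45 in KO cells and 5.07 in WT cells, and was among 14 of the 27 genes below the median of all probe sets in both genotypes. Marveld2, tricellulin, which shares its membrane domain with occludin, had a log2 difference of 0.01 (limma adjusted p = 0.962).
Of 11 desmosome genes, 3 were higher and 0 were lower in KO cells. Pkp2, plakophilin-2, which links desmosomal cadherins to desmoplakin, averaged 7.85 in KO cells and 5.85 in WT cells, a log2 difference of 2.00 (SE 0.09, limma adjusted p = 1.69e-07). Ppl, periplakin, rose by 0.41 (adjusted p = 0.000703). The desmosomal cadherins Dsg2, Dsg3, Dsc2 and Dsc3 had means between 4.59 and 4.98 in both genotypes, and their adjusted p values lay between 0.423 and 0.88. Of 8 relatives of Epcam and other epithelial surface genes, all 8 lay below the median of all probe sets in both genotypes and 1 was higher, Cd24a, by 0.49 log2 units (limma adjusted p = 0.00182).

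**Figure D5:**
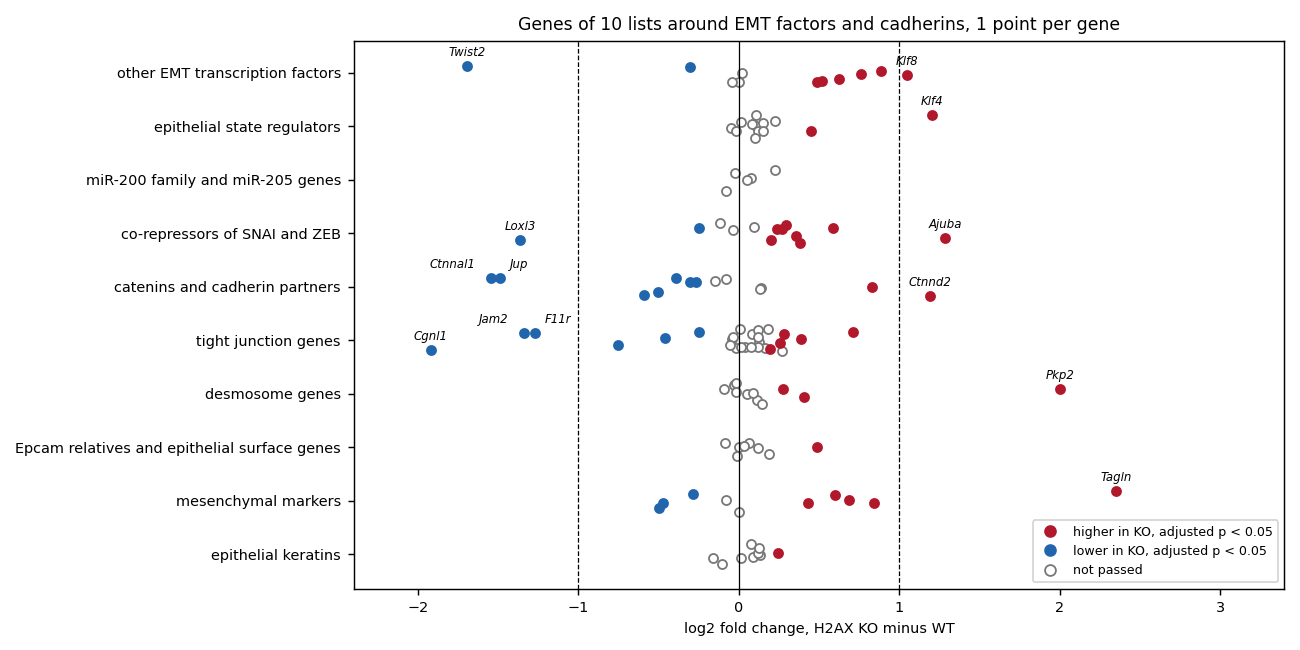
Log2 fold change of H2AX KO minus WT (x axis) for the measured genes of 10 lists (rows), with 1 point per gene, filled red for higher and filled blue for lower at an adjusted p under 0.05 from limma and open for genes that did not pass. Dashed lines mark a fold change of 2, and the genes beyond them are named, from Cgnl1 at -1.92 to Tagln at 2.35.

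Mesenchymal markers moved in both directions as well. Of 10 measured, 5 were higher, 3 were lower and 2 missed the threshold. The actin-binding gene Tagln rose by 2.35 log2 units (adjusted p = 5.5e-09) and the smooth muscle actin Acta2 rose by 0.84 (adjusted p = 4.09e-06). The membrane-type protease Mmp14 fell by 0.50 (adjusted p = 0.000224) and S100a4, also called fibroblast-specific protein, fell by 0.47 (limma adjusted p = 0.00147). Vim had a log2 difference of -0.08 (adjusted p = 0.359). Fibroblast markers were likewise mixed, and 6 of the 12 were higher and 4 lower. The surface antigen Thy1 and the receptor Pdgfrb had log2 differences of 4.03 and 1.70, and Fap and the proteoglycan Dcn had log2 differences of -2.57 and -2.15.

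Markers of other cell types were examined beside the epithelial genes. Of 9 keratins, 1 was higher and 0 were lower, and the higher one, Krt19, averaged 5.03 in KO cells and 4.78 in WT cells (limma adjusted p = 0.0163). No keratin was higher without WT replicate 2, WT replicate 3 or H2AX KO replicate 1, and 1 was lower without H2AX KO replicate 2. The keratin values summed on the linear scale lay between 403.2 and 450.5 on KO arrays and between 416.8 and 422.6 on WT arrays, and 8 of the 9 lay below the median of all probe sets in both genotypes. Of 8 endothelial markers, 0 were higher and 1 was lower, Emcn, by 0.41 log2 units (sums of 276 to 297 on KO arrays and of 288.7 to 296.5 on WT arrays). Of 10 macrophage and leukocyte markers, Cd68 was higher, at 0.29, and Cd14 was lower, at -0.38 (sums of 445.1 to 447.7 on KO arrays and of 432.8 to 455.9 on WT arrays). Cd68 was no longer higher without WT replicate 1, WT replicate 3, H2AX KO replicate 1 or H2AX KO replicate 3. The same held with the replicate number as a block and without moderation of the variance. Of 5 neural crest and Schwann cell markers, 0 passed the test in either direction (sums of 222.5 to 254.2 on KO arrays and of 225.9 to 237.8 on WT arrays).
Of 6 mesothelial markers, Msln, mesothelin, had values above the median of all probe sets, at 9.76 in KO cells and 10.34 in WT cells (log2 fold change -0.58, limma adjusted p = 0.000551), and the other 5 lay below it (sums of 982.5 to 1112 on KO arrays and of 1376 to 1588 on WT arrays). A mesothelial marker was higher without H2AX KO replicate 1. Of 6 skeletal myoblast markers, 1 was lower, Chrna1, a subunit of the muscle acetylcholine receptor, with means of 5.10 in KO cells and 8.38 in WT cells and a log2 difference of -3.28 (adjusted p = 3.36e-08), whereas Myod1 and Myf5 had log2 fold changes of 0.10 and 0.05 (sums of 252.8 to 284.4 on KO arrays and of 500.1 to 628.6 on WT arrays). The part of other cell types in the changes of Ocln, Cdh3 and the other genes was not tested.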

How the data were processed

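RNA of 3 H2AX KO and 3 WT MEF samples was hybridized to Affymetrix Mouse Gene ST arrays, and samples were grouped by the submitters' titles. According to the methods and the submitters' processing notes, the authors processed scans with Affymetrix Expression Console and used Partek (version 6.6) for normalization. They deposited log2 values for 35556 probe sets. How background was corrected and probes summarized is not given in the sources used here, and normalized values hide any difference in total RNA between cells. The identifiers are those of an earlier array version than the methods name. Of 23410 annotated probe sets, 21789 had 1 symbol and 1621 had several. Symbols were updated through RefSeq (GRCm38.p6, 21698 matched), and for 999 genes the probe set with the highest mean was taken, giving 19938 genes.

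H2AX KO was compared with WT by limma (version 3.58.1, R version 4.3.3) with genotype as the only term and p-values adjusted by Benjamini-Hochberg over the 19938 genes, and the fit was checked on simulated data. Confidence intervals are at 95% and unadjusted. All p-values are two-sided. The number of arrays limits the precision. The genes described and the 20 lists around them were chosen with earlier results of these data known. In each list the 2 largest rises and the 2 largest falls that passed were named, as were relatives of the 10 genes and genes given as named after their values were seen, and Grhl2, Adam10, Marveld2, Vim, the desmosomal cadherins and single miRNA and marker genes, which were likewise named with their values known. Alternatives were a replicate block, leaving out each array, the methods' unmoderated test, a trended prior with robust estimation, median centring, quantile normalization, the 50% of genes with the higher mean alone, averaging probe sets, and testing all probe sets.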

Additional observations from a re-analysis of the deposited data

Results flagged for a closer look

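The 3 probe sets that the annotation assigns to Cdh11 together with the gene models 6820431F20Rik and 2610005L07Rik were outside the comparison and carried signal that was higher on each H2AX KO array than on each WT array. Their means were 12.07, 10.90 and 12.01 in KO cells and 11.29, 10.13 and 11.25 in WT cells, with log2 fold changes of 0.77, 0.77 and 0.76 (adjusted p between 9.18e-05 and 0.000145 from limma over all probe sets). The Cdh11 probe set with a single symbol had a log2 fold change of 2.01. Which of the 3 annotated genes gives the signal of these probe sets was not tested.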

How the results depend on the processing

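Each of the 10 genes kept its direction under every alternative run (14 for each gene, 13 for Cdh1, Ocln and Epcam, which were left out with the 50% of genes with the lowest mean). Cdh3, Cdh11, Cdh2, Zeb2 and Ocln passed and Snai2, Cdh1 and Epcam did not pass in all of them. Snai1 had a log2 fold change of 0.38 without moderation of the variance, where it no longer passed (adjusted p = 0.096), and passed in the others, with 0.30 to 0.45 when arrays were left out in turn. Zeb1 passed after quantile normalization (0.17, adjusted p = 0.0455) and median centring (0.22, adjusted p = 0.0419), and its log2 fold change lay between 0.15 and 0.23 when arrays were left out in turn, passing only without H2AX KO replicate 2. The cause was not tested. With a fold change over 2, 422 genes were higher and 634 lower in place of 3676 and 2990, and of the 10 genes 2 were higher and 0 lower. No sign of pairing by replicate number was seen (correlations of same-numbered deviations from the genotype means of -0.29, -0.24 and 0.08). No H2AX KO array correlated best with the WT array of its own number, though for H2AX KO replicate 3 WT replicates 2 and 3 were nearly equal (0.084 and 0.08). With 3 arrays per genotype, these correlations cannot show that same-numbered arrays were prepared apart. With the replicate number as a block, 3170 genes were higher and 2640 lower, and no call among the 10 genes changed (adjusted p = 0.00821 for Snai1 and 0.136 for Zeb1). Of 550 recomputed list counts, 512 stayed within 1.5 times, 8 moved up and 30 moved down. Cdh1, Epcam and Ocln had signal below the median of all probe sets in both genotypes, which limits what can be said of them.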
